A study of Drosophila melanogaster with 18 samples.

Results

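Transcripts of 7 genes of the cytosolic heat shock protein machinery were followed: the heat shock factor gene Hsf, the Hsp90 gene Hsp83, the constitutive Hsp70 gene Hsc70-4, and the cofactor genes DnaJ-1, stv, Hsc70Cb and Hop. They were chosen by gene symbol from the 17753 genes of the deposited count table, and all 7 passed the filter on low counts. The gene names used here list Hsc70Cb as Hsp110 and Hop as Stip1, and both matches were made through RefSeq synonyms. Hop in this sense is the Hsp70/Hsp90 organizing protein and not the Janus kinase gene hop.

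RNA depleted of rRNA was sequenced from DL1 cells, a cultured Drosophila melanogaster line derived from S2 cells, in 18 libraries that form 6 groups of 3. IntS6 cells and IntS12 cells are stable populations, selected with puromycin, in which plasmids express FLAG-IntS6 or FLAG-IntS12 from the promoter of MtnA, a metallothionein gene that copper induces. Parental cells are DL1 cells without either plasmid. IntS6 and IntS12 are subunits of Integrator, a complex that cleaves nascent RNA. All cells were grown for 3 d, and IntS6, IntS12 and parental cells each received 500 µM copper sulfate for the last 24 h or none. Each line is 1 selected population, and a line with an empty plasmid was not analysed here. The submitters call A, B and C biological replicate sets, but the labels do not say whether each set was a culture of its own. A p-value here therefore reflects the variation among these libraries, which may be technical.

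Heat shock factor is the transcription factor that animals use to switch on chaperone genes when proteins misfold, and Hsp90 and Hsp70 chaperones are known to hold it inactive in unstressed cells. Hsp70 proteins bind and release client proteins in a cycle driven by ATP: J-domain proteins such as DnaJ-1 deliver clients and start ATP hydrolysis, and exchange factors such as Hsc70Cb and BAG-domain proteins such as stv release the spent nucleotide. Hop bridges Hsp70 and Hsp90 and passes clients between them.

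Library totals ran from 13217764 to 18214756 counts, of which genes named as rRNA took 70.2% to 73.4%. The labels were checked on the transgenes. IntS6 averaged 2365 ± 174 CPM (counts scaled to library size; SD, n = 3) in IntS6 cells with copper, against 40.5 ± 3.39 CPM in IntS12 cells with copper and 36.3 ± 1.45 CPM in parental cells with copper. IntS12 averaged 92.8 ± 3.91 CPM in IntS12 cells with copper, against 3.30 ± 0.681 CPM in IntS6 cells with copper and 3.62 ± 0.317 CPM in parental cells with copper. Without copper these transcripts were also above the parental level in their own lines: IntS6 averaged 71.4 ± 3.58 CPM in IntS6 cells against 28 ± 1.52 CPM in parental cells, and IntS12 averaged 8.44 ± 1.29 CPM in IntS12 cells against 4.98 ± 0.510 CPM in parental cells. The 10 markers of plasmatocytes, the macrophages of flies, summed to 507 to 638 CPM in IntS6 cells with copper, 406 to 460 CPM in IntS12 cells with copper and 383 to 444 CPM in parental cells with copper. None was at 0 in every library, but Sr-CI had at most 3 counts in a library. The highest was Ppn, at 251 ± 36 CPM in IntS6 cells with copper. Of the 4 fat body markers Fbp2 and Lsp2 were at 0 in every library, and Fbp1 and Lsp1beta had at most 1 count in a library.

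The 7 genes lie at separate loci of BDGP6.54, and all are protein-coding. Hsf (FBgn0001222) is on chromosome arm 2R, from 18130303 to 18134634 on the minus strand. Hsp83 (FBgn0001233) lies on 3L from 3192969 to 3197059, plus strand, and shares 0.507% of its exon bases with CG14966 on the other strand. Hsc70-4 (FBgn0266599) is on 3R, from 15242687 to 15246614 on the plus strand. DnaJ-1 (FBgn0263106) covers 5750029 to 5752189 on the minus strand of 3L. The BAG gene stv (FBgn0086708) covers 13477541 to 13483515 and Hsc70Cb (FBgn0026418) covers 14037019 to 14043686, both on the plus strand of 3L. Hop (FBgn0024352) spans 295122 to 297449 on the plus strand of 2L. Apart from Hsp83 none of the 7 shares exon bases with another annotated gene. Whether reads that map to several places were split among genes is not stated, and the deposited counts were whole numbers in 1 of 18 libraries for Hsc70-4, 4 for Hsp83, 5 for Hsc70Cb, 6 for Hop, 10 for Hsf, 13 for DnaJ-1 and 14 for stv.

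Scaled to exon length, the levels of the 7 genes differed widely. In parental cells with copper, Hsc70-4 was the highest at 1071 ± 54.7 CPM per kb of exon (SD, n = 3), followed by Hsp83 at 264 ± 18.2 CPM per kb. Hop stood at 86.5 ± 4.11, Hsc70Cb at 46.2 ± 4.91 and DnaJ-1 at 18.9 ± 0.992 CPM per kb. The factor Hsf, at 13.2 ± 1.20 CPM per kb, and stv, at 3.38 ± 0.450 CPM per kb, were the lowest of the 7. Every library of parental cells with copper kept this order.

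**Figure D1:**
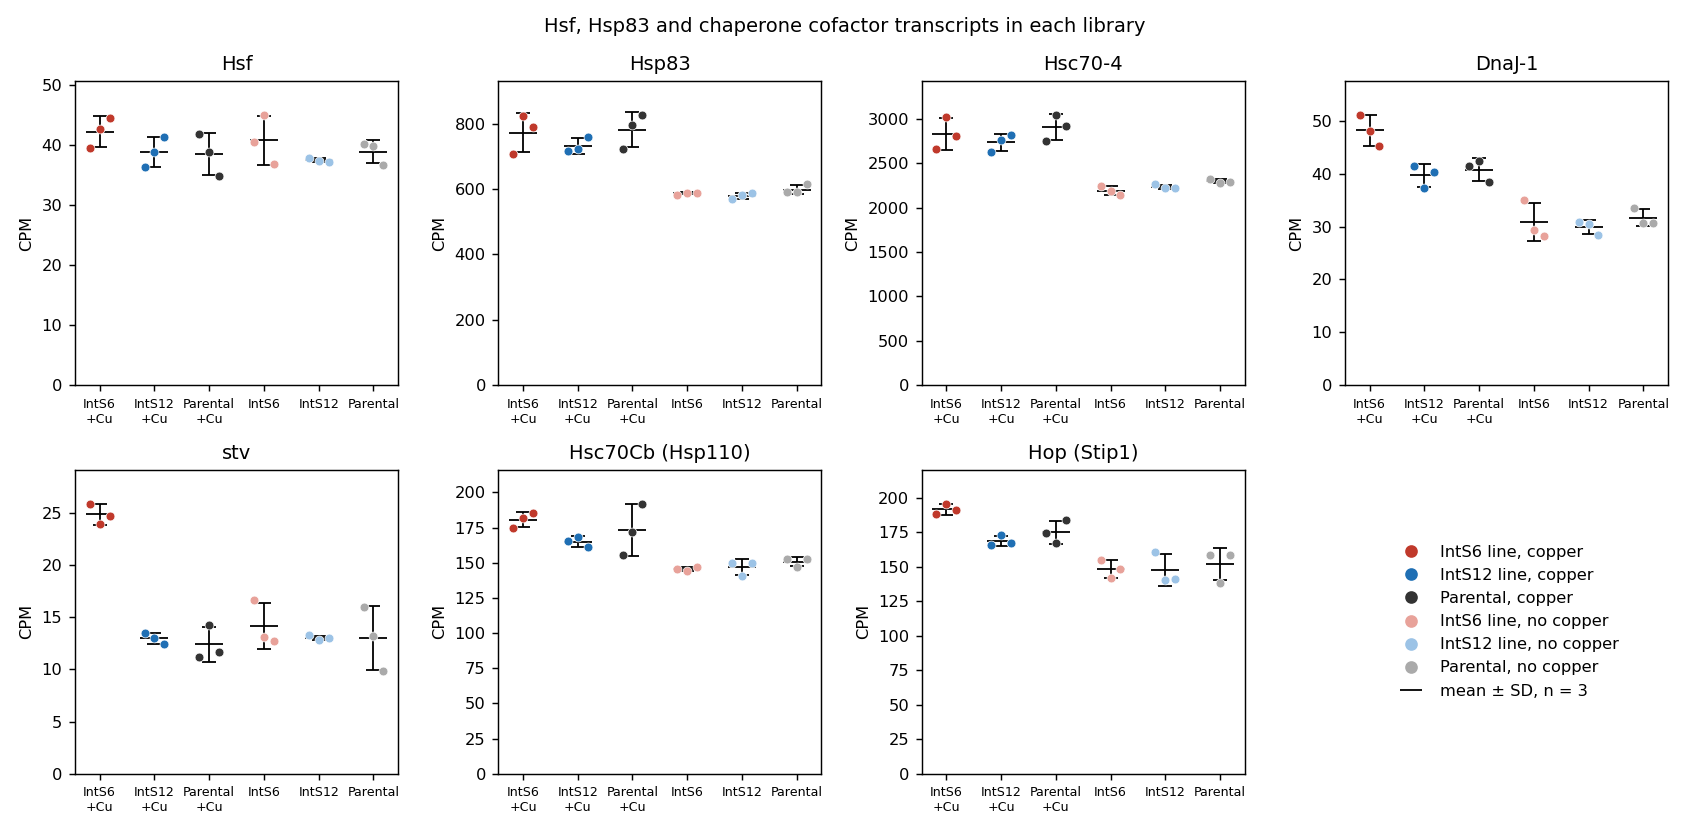
CPM of each of the 7 genes (vertical axes, each from 0) in the 18 libraries, with 1 point per library and the mean ± SD of the 3 libraries of a group as bars. Hsp83, Hsc70-4, DnaJ-1, Hsc70Cb and Hop stand higher in all 9 libraries with copper than in all 9 without (11.7% of genes tested did), stv stands apart in the 3 IntS6 libraries with copper at 23.9 to 25.9 CPM, and the 6 groups of Hsf overlap.

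Hsf itself passed the test in none of the 10 comparisons. In libraries A, B and C, Hsf had 39.6, 42.8 and 44.5 CPM in IntS6 cells with copper, 36.4, 38.9 and 41.4 CPM in IntS12 cells with copper and 41.9, 38.8 and 34.9 CPM in parental cells with copper. Without copper it had 40.5, 45.1 and 36.9 CPM in IntS6 cells, 38.0, 37.4 and 37.2 CPM in IntS12 cells and 40.2, 39.9 and 36.8 CPM in parental cells. Each group overlapped the next in the order of group means, from IntS6 cells with copper at 42.3 ± 2.51 CPM to IntS12 cells without copper at 37.5 ± 0.392 CPM. The log2 fold change of Hsf with against without copper in parental cells was -0.015 ± 0.082 (SE), with a 95% interval from -0.18 to 0.16 (edgeR quasi-likelihood test, adjusted p = 0.911). Between IntS6 cells and parental cells, both with copper, it was 0.13 ± 0.08, with an interval from -0.04 to 0.30 (edgeR adjusted p = 0.383).

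Hsp83, which encodes the cytosolic Hsp90 of flies, was higher with copper in every kind of cell. With copper it had 706, 822 and 788 CPM in IntS6 cells, 715, 722 and 760.2 CPM in IntS12 cells and 722, 796 and 827 CPM in parental cells, in libraries A, B and C. Without copper it had 583, 589 and 588 CPM in IntS6 cells, 569, 581 and 588 CPM in IntS12 cells and 589.5, 590.4 and 615 CPM in parental cells. The lowest library with copper was thus above the highest without, and the ranges of the 3 kinds of cell with copper overlapped. Hsp83 rose 1.32-fold with copper in IntS6 cells (log2 0.40 ± 0.06, edgeR adjusted p = 2.29e-05). The rise was 1.26-fold in IntS12 cells (log2 0.34 ± 0.06, edgeR adjusted p = 0.000194) and 1.31-fold in parental cells (log2 0.39 ± 0.06, edgeR adjusted p = 4.36e-05). RNA of whole cultures was measured, so fewer cells of a type and less RNA per cell cannot be told apart here or below.

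Hsc70-4, the main constitutive cytosolic Hsp70 of flies, was likewise higher with copper. It had 2664, 3022 and 2815 CPM in IntS6 cells with copper, 2626, 2764 and 2820 CPM in IntS12 cells with copper and 2753, 3049 and 2927 CPM in parental cells with copper. Without copper its levels were 2251, 2187 and 2143 CPM in IntS6 cells, 2264, 2226 and 2226 CPM in IntS12 cells and 2329, 2277 and 2296 CPM in parental cells. All 9 libraries with copper lay above all 9 without, and the ranges of the 3 kinds of cell with copper overlapped. Copper raised Hsc70-4 by 1.29-fold in IntS6 cells (edgeR adjusted p = 2.51e-05), 1.22-fold in IntS12 cells (adjusted p = 0.00049) and 1.26-fold in parental cells (log2 0.34 ± 0.06, adjusted p = 9.46e-05). Against parental cells with copper, the IntS6 cells differed by a log2 fold change of -0.04 for Hsc70-4 (95% interval -0.16 to 0.08) and of -0.018 for Hsp83 (95% interval -0.15 to 0.11). Neither passed the test, with edgeR adjusted p of 0.763 and 0.904.

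DnaJ-1, a J-domain protein of the Hsp40 family, was highest in IntS6 cells with copper. It had 51.2, 48.1 and 45.3 CPM there, against 41.5, 37.2 and 40.4 CPM in IntS12 cells with copper and 41.5, 42.5 and 38.4 CPM in parental cells with copper. In cells without copper DnaJ-1 had 35.0, 29.4 and 28.2 CPM in the IntS6 line, 30.9, 30.4 and 28.5 CPM in the IntS12 line and 33.5, 30.7 and 30.8 CPM in parental cells. The 3 IntS6 libraries with copper lay above the other 15 libraries, and the other 6 with copper lay above all 9 without. The share of genes tested with the first pattern was not computed. In IntS6 over parental cells with copper, 14% of genes tested were higher without overlap. For 11.7% all 9 libraries with copper lay above all 9 without. Copper raised DnaJ-1 by 1.56-fold in IntS6 cells (log2 0.65 ± 0.08, edgeR adjusted p = 1.2e-06), 1.32-fold in IntS12 cells (log2 0.41 ± 0.08, adjusted p = 0.000428) and 1.29-fold in parental cells (log2 0.37 ± 0.08, adjusted p = 0.0011). The difference between IntS6 cells and parental cells, both with copper, was 1.18-fold (log2 0.24 ± 0.08) and did not pass the test (edgeR adjusted p = 0.0595). DnaJ-1 stayed uncalled in 13 of 14 alternative settings, with adjusted p of up to 0.225. The exception was the fit with the replicate letter as a block (adjusted p = 0.0216). Between same-letter libraries of these 2 groups, deviations from the group mean correlated at r of 0.213, 0.244 and 0.136 over the genes tested.

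Hsc70Cb, which encodes the fly member of the Hsp110 family of exchange factors, had 175, 182 and 186 CPM in IntS6 cells with copper, 166, 168 and 161 CPM in IntS12 cells with copper and 155, 172 and 192 CPM in parental cells with copper. Without copper it had 146, 144 and 147 CPM in IntS6 cells, 150.1, 140.5 and 150.1 CPM in IntS12 cells and 153, 147 and 152 CPM in parental cells. Its groups with copper overlapped from 1 to the next in the order of means, while each kind of cell was higher with copper without overlap. Hsc70Cb rose with copper by 1.24-fold in IntS6 cells (edgeR adjusted p = 0.000445), 1.12-fold in IntS12 cells (adjusted p = 0.0467) and 1.15-fold in parental cells (adjusted p = 0.0178). The call in parental cells rested on single libraries: without parental library C with copper the log2 fold change was 0.12 instead of 0.20 (adjusted p = 0.151), and without parental library B without copper the adjusted p was 0.0596. It also ended with no filter on low counts (adjusted p = 0.0504) and with these groups fitted alone (0.0934). In IntS12 cells the call was kept in 5 of 14 alternative settings and was lost when any 1 of the 6 libraries was left out.

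Hop, the adaptor that holds Hsp70 and Hsp90 together, had 188, 196 and 191 CPM in IntS6 cells with copper, 166, 173 and 167 CPM in IntS12 cells with copper and 174, 167 and 184 CPM in parental cells with copper. Without copper Hop had 155, 142 and 148 CPM in IntS6 cells, 161, 140.3 and 141 CPM in IntS12 cells and 158, 138 and 159 CPM in parental cells. The 3 IntS6 libraries with copper were the highest of the 9 with copper, and the untreated groups overlapped. Hop rose with copper by 1.29-fold in IntS6 cells (log2 0.37 ± 0.07, edgeR adjusted p = 0.000121), 1.14-fold in IntS12 cells (log2 0.19 ± 0.07, adjusted p = 0.0277) and 1.15-fold in parental cells (log2 0.20 ± 0.07, adjusted p = 0.0193). In parental cells the call was lost without library C with copper (adjusted p = 0.0838) or library B without copper (adjusted p = 0.122) and with these groups fitted alone (0.0731), and in IntS12 cells it was kept in 7 of 14 alternative settings. There it was lost without IntS12 library A, B or C with copper or library B or C without copper, with adjusted p from 0.0527 to 0.131. Against parental cells with copper, Hop in IntS6 cells was 1.10-fold higher without overlap, a difference that did not pass the test (log2 0.13 ± 0.07, edgeR adjusted p = 0.267).

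The BAG-domain gene stv (starvin), whose human counterpart BAG3 hands Hsp70 clients to autophagy, was high in IntS6 cells with copper alone among the 6 groups. It had 25.9, 23.9 and 24.7 CPM in IntS6 cells with copper, against 13.5, 13.0 and 12.4 CPM in IntS12 cells with copper and 11.2, 14.3 and 11.7 CPM in parental cells with copper. Without copper stv had 16.7, 13.1 and 12.7 CPM in IntS6 cells, 13.2, 12.9 and 13.0 CPM in IntS12 cells and 16.0, 13.2 and 9.87 CPM in parental cells. The IntS6 libraries with copper lay above the other 15, and the other 5 groups overlapped one another in the order of their means. How many of the genes tested had their IntS6 libraries with copper above the other 15 was not computed. At these levels the deposited counts of stv were 136 to 453.67 per library, the fewest of the 7 genes.

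Compared with parental cells with copper, stv in IntS6 cells with copper was 1.99-fold higher (log2 0.99 ± 0.13, edgeR adjusted p = 1.92e-05). The call was kept under all 14 alternative settings, with log2 fold changes from 0.93 to 1.11. Of the 8174 genes tested, 3.58% had a larger log2 fold change in this comparison. Within the IntS6 line stv rose 1.76-fold with copper (log2 0.81 ± 0.13, edgeR adjusted p = 2.22e-05). Its log2 fold change with copper was -0.0073 ± 0.14 in IntS12 cells (adjusted p = 0.973) and -0.07 ± 0.14 in parental cells (adjusted p = 0.734), and neither passed the test. The copper response of stv in IntS6 cells minus that in parental cells was 0.88 ± 0.19 on the log2 scale, or 1.84-fold, and passed the test of this difference (edgeR adjusted p = 0.0191). This call ended without IntS6 library A with copper (adjusted p = 0.0586), parental library A with copper (0.0541), IntS6 library B (0.0805) or C (0.0827) without copper, or parental library A without copper (0.0947), and when these 4 groups were fitted alone (0.0694).

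Some other measures were also highest in IntS6 cells among the groups with copper. Unlike stv, MtnA was far higher with copper than without in every kind of cell. MtnA, the metallothionein gene whose promoter drives the transgenes, averaged 549 ± 59.4 CPM (SD, n = 3) in IntS6 cells with copper, 387 ± 65.6 CPM in IntS12 cells with copper and 319 ± 82.3 CPM in parental cells with copper. Without copper it averaged 3.02 ± 0.322, 3.00 ± 0.156 and 2.85 ± 0.318 CPM in IntS6, IntS12 and parental cells. The 4 crystal cell markers summed to 2.38 to 3.02 CPM in IntS6 cells with copper, 0.745 to 0.98 CPM in IntS12 cells with copper and 0.355 to 0.726 CPM in parental cells with copper. Without copper the sums were 0.865 to 1.22 CPM in IntS6 cells, 0.333 to 1.2 CPM in IntS12 cells and 0.568 to 0.788 CPM in parental cells. Most of the sum in IntS6 cells with copper was peb, at 2.20 ± 0.295 CPM, while lz, PPO1 and PPO2 averaged 0.469, 0.038 and 0.066 CPM. The 4 lamellocyte markers summed to 273 to 282, 187 to 219 and 170 to 238 CPM in IntS6, IntS12 and parental cells with copper. Untreated sums in the same order of cells were 186 to 233, 178 to 225 and 177 to 209 CPM. Most of the sum was cher and Mmp1, at 151 and 117 CPM in IntS6 cells with copper. With copper in parental cells cher fell (log2 -0.48 ± 0.09, edgeR adjusted p = 0.000247) and Mmp1 rose (log2 1.51 ± 0.21, adjusted p = 8.53e-06). The plasmatocyte markers, given above, were also highest in IntS6 cells among the groups with copper, but without copper they summed to 542 to 598 CPM in IntS6 cells, 514 to 617 CPM in IntS12 cells and 477 to 601 CPM in parental cells. The part of MtnA and of these markers in the result for stv was not tested.

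**Figure D2:**
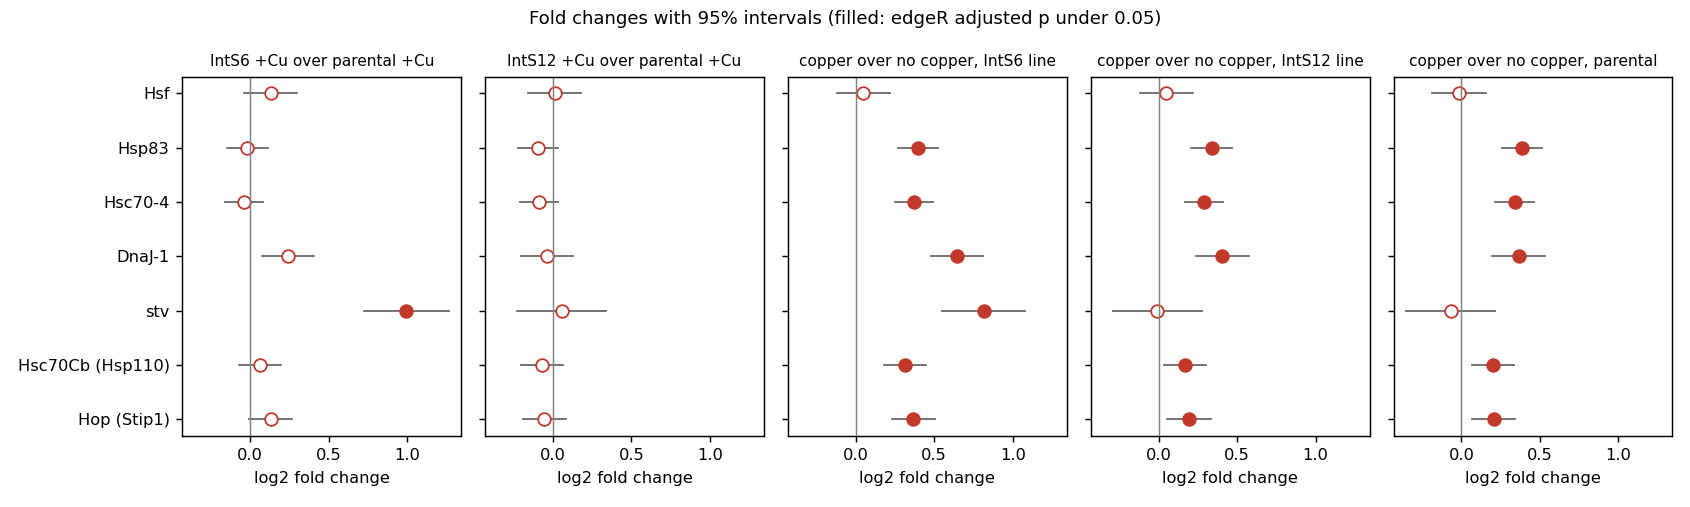
Log2 fold change of the 7 genes (rows) in 5 comparisons (panels), with 95% intervals as lines and filled points for an edgeR adjusted p under 0.05. In the panel of IntS6 over parental cells, both with copper, only stv is filled, at 0.99, no point is filled for IntS12 over parental cells, and with copper over without, Hsf is open in all 3 kinds of cell and stv is filled in 1 of them, IntS6 cells.

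Across the 7 genes, 1 was called in IntS6 cells against parental cells, both with copper, where 7.45% of the 8174 genes tested were called higher. The median log2 fold change of the 7 was 0.13, beside -0.008 over all genes tested. Libraries of the 2 groups did not overlap for 3 of the 7, stv, DnaJ-1 and Hop, all higher in IntS6 cells, as for 14% of all genes tested. With the replicate letter as a block, 2 of the 7 were called, where 10.9% of genes tested were called in either direction, against 8.91% without the block.

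Copper raised 6 of the 7 genes in IntS6 cells, where 23.3% of genes tested were called higher, and the median log2 fold change of the 7 was 0.37 beside -0.0075 over all genes. In IntS12 cells 5 of the 7 rose, against 19.2% of genes tested, with a median of 0.19 beside 0.013. In parental cells 5 rose, against 19.3% of genes tested, with a median of 0.20 beside 0.0036. For 5 genes, Hsp83, Hsc70-4, DnaJ-1, Hsc70Cb and Hop, all 9 libraries with copper lay above all 9 without, as was so for 11.7% of the genes tested. The rises ran from 1.12-fold to 1.76-fold.

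None of the 7 was called in IntS12 cells against parental cells, both with copper, where 0.0245% of genes tested were called. None had an unadjusted edgeR p under 0.05 there (0 of 7) and DESeq2 called 0. Their log2 fold changes ran from -0.09 for Hsp83 to 0.06 for stv. This comparison shares its parental libraries with that of the IntS6 cells.

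In IntS6 cells with copper set against IntS12 cells with copper, 2 of the 7 genes were called, both higher, where 5.06% of genes tested were called higher. The BAG gene stv was 1.92-fold higher (log2 0.94 ± 0.13, edgeR adjusted p = 5.09e-05). DnaJ-1 was 1.21-fold higher (log2 0.28 ± 0.08, adjusted p = 0.0365), a call that ended with library sizes unscaled (adjusted p = 0.101), without IntS6 library A (0.164) or B (0.079), or without IntS12 library A (0.0511), B (0.147) or C (0.0852). Hop and Hsc70Cb were also higher without overlap, which 14.1% of genes tested were, but did not pass the test, with log2 differences of 0.18 ± 0.07 (adjusted p = 0.122) and 0.13 ± 0.06 (adjusted p = 0.279).

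Without copper none of the 7 genes passed the test between either line and parental cells. For IntS6 cells against parental cells, 0 of the 7 were called by edgeR or DESeq2, 0 had an unadjusted p under 0.05, and 0.208% of genes tested were called. The log2 fold changes ran from -0.07 for Hsc70-4 to 0.11 for stv, with 95% intervals of -0.19 to 0.05 and -0.17 to 0.39. In IntS12 cells against parental cells, both without copper, 0 of the 7 were called by either tool and 0 had an unadjusted p under 0.05, where 0.0367% of genes tested were called. Hsp83, Hsc70-4 and Hsc70Cb were lower in all 3 untreated IntS6 libraries than in the parental ones, as were 4.69% of genes tested. Hsp83 and Hsc70-4 were lower in all 3 untreated IntS12 libraries than in the same parental ones, as were 4.05% of genes tested. The margins were small. The highest untreated IntS6 library and the lowest parental one had 589 and 589.5 CPM of Hsp83, 2251 and 2277 CPM of Hsc70-4, and 146.7 and 146.9 CPM of Hsc70Cb. The highest untreated IntS12 library had 588.1 CPM of Hsp83 and 2264 CPM of Hsc70-4.

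The copper response of IntS6 cells minus that of parental cells was called for 1 of the 7 genes, stv, where 1.13% of genes tested were called higher. DnaJ-1 came next, at 0.28 ± 0.11 on the log2 scale, with an unadjusted p of 0.023 and an edgeR adjusted p of 0.335. For Hop and Hsc70Cb the difference was 0.16 ± 0.09 (adjusted p = 0.602) and 0.11 ± 0.09 (adjusted p = 0.742). For Hsp83 the difference was 0.0096 ± 0.088, with a 95% interval from -0.17 to 0.19. In IntS12 cells the same difference was called for 0 of the 7 by edgeR and by DESeq2, with 0 at an unadjusted p under 0.05 and 0.0122% of genes tested called. Its value for stv was 0.06 ± 0.19.

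Counts of each gene were also divided by those of Hsc70-4 in the same library, a ratio that needs no scaling between libraries but moves with Hsc70-4, which rose 1.22- to 1.29-fold with copper. Hsp83 ran from 252 to 282 counts per 1000 Hsc70-4 counts over the 18 libraries, the narrowest relative range of the 6 genes. Hsc70Cb ran from 56.4 to 68.4 and Hop from 54.8 to 71.0 per 1000. The ratio of stv averaged 8.80 ± 0.901 per 1000 in IntS6 cells with copper (SD, n = 3), against 4.75 ± 0.356 in IntS12 cells with copper and 4.25 ± 0.378 in parental cells with copper. Without copper it averaged 6.45 ± 0.838 in IntS6 cells, 5.83 ± 0.0469 in IntS12 cells and 5.65 ± 1.29 in parental cells. For Hsf the ratio was 14.9 ± 0.831, 14.2 ± 0.425 and 13.3 ± 1.72 per 1000 in IntS6, IntS12 and parental cells with copper, and 18.6 ± 1.79, 16.8 ± 0.0568 and 16.9 ± 0.800 in the same cells without copper.

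**Figure D3:**
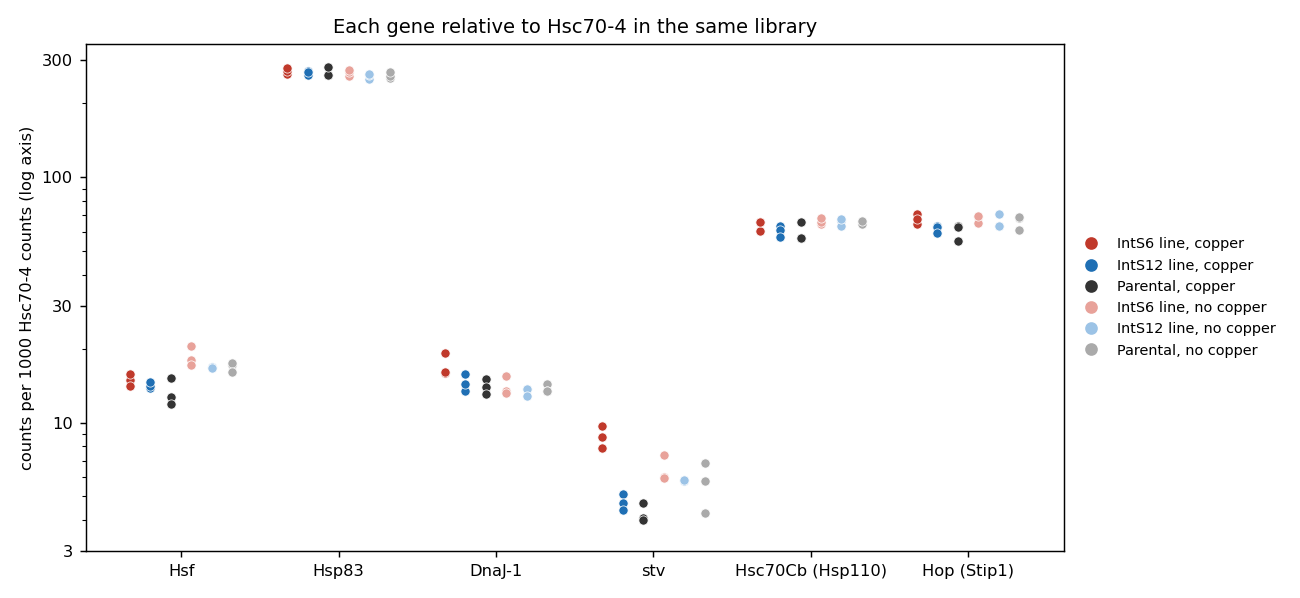
Counts of Hsf, Hsp83, DnaJ-1, stv, Hsc70Cb and Hop per 1000 Hsc70-4 counts of the same library (log axis), with 1 point per library and the 6 groups in colours. The points of Hsp83 lie between 252 and 282, and those of stv in IntS6 cells with copper, at 7.91 to 9.71, lie above those of every other group.

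The heat-inducible Hsp70 genes are near-identical copies among which reads could be split, so the counts of the 6 copies were summed. The sum averaged 52.2 ± 12.4 CPM (SD, n = 3) in IntS6 cells with copper, 8.91 ± 0.615 CPM in IntS12 cells with copper and 19.7 ± 4.36 CPM in parental cells with copper. Without copper it averaged 8.98 ± 5.02 CPM in IntS6 cells, 3.05 ± 0.598 CPM in IntS12 cells and 11.2 ± 5.76 CPM in parental cells. Among untreated libraries, replicate A of the IntS6 cells, at 14.7 CPM against 7.12 and 5.16 CPM, and of the parental cells, at 17.8 CPM against 7.32 and 8.41 CPM, held the most Hsp70. The same 2 libraries had the highest stv and DnaJ-1 of their groups, whereas in parental cells with copper library A had the most Hsp70, at 24.7 CPM, and the least stv. Hsf was highest in library B of the untreated IntS6 cells, at 45.1 CPM.

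**Figure D4:**
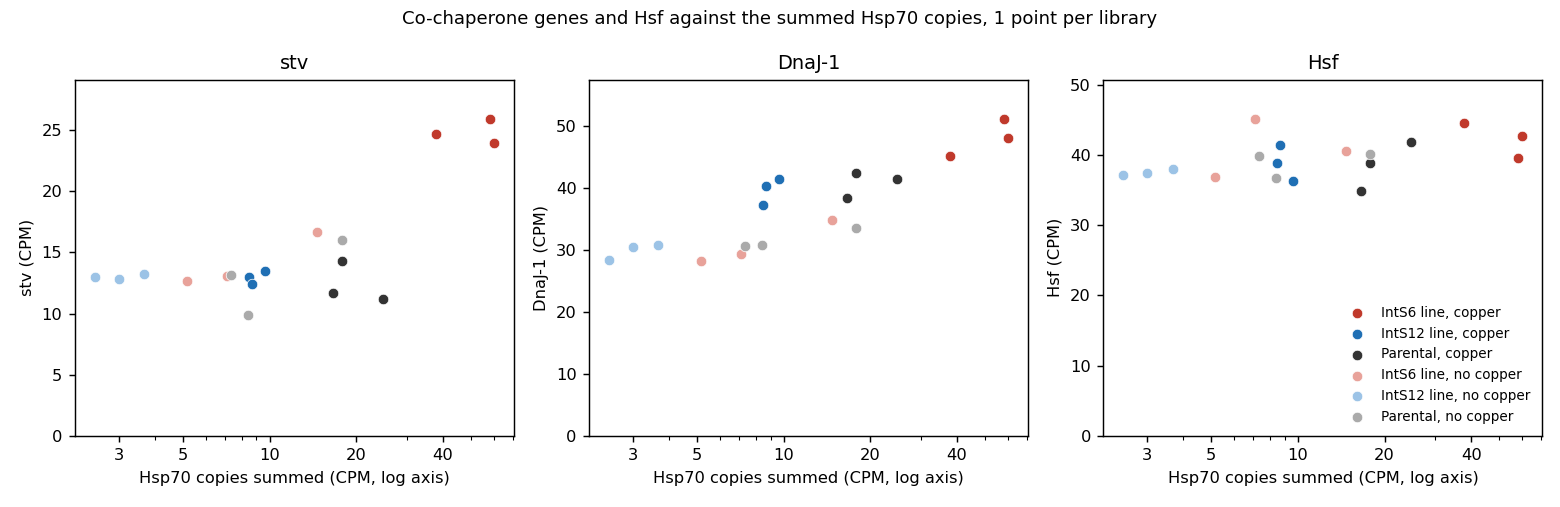
CPM of stv, DnaJ-1 and Hsf (vertical axes from 0) against the summed CPM of the 6 Hsp70 copies (log axis), 1 point per library. The 3 IntS6 libraries with copper lie at 37.8 to 60.3 CPM of Hsp70 and hold the highest stv and DnaJ-1, while Hsf lies between 34.9 and 45.1 CPM over the whole range.

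Wider lists of chaperone genes were set beside the 7. In parental cells, where 19.3% of genes tested were called higher with copper and 19.3% lower, 5 of 5 mitochondrial chaperones and 4 of 4 further Hsp70 paralogs and exchange factors rose. They included Hsc70-5, the mitochondrial Hsp70 (log2 0.73 ± 0.09, edgeR adjusted p = 8.37e-07), the mitochondrial chaperonin gene Hsp60A (log2 0.49 ± 0.08, adjusted p = 3.5e-05) and Grp170, an Hsp110-like protein of the endoplasmic reticulum (log2 0.45 ± 0.09, adjusted p = 0.000248). Of the genes that rose, Hsc70-5 counts in both lists, Trap1 also in the Hsp90 list below and Hsc20 also in the J-domain list. Of 31 J-domain genes other than DnaJ-1, 16 rose and 2 fell with copper, and the largest of the 3 with the smallest p was CG7130 (log2 1.73 ± 0.23, adjusted p = 3.25e-06). Of 14 chaperonin and prefoldin subunits 5 rose, among them CCT4 (log2 0.26 ± 0.07, adjusted p = 0.00897), a count that was 1 without parental library C with copper and 3 without parental library C without copper. Among 15 Hsp90 paralogs and co-chaperones, 2 rose and 2 fell. Gp93, the Hsp90 of the endoplasmic reticulum, rose 1.99-fold (log2 0.99 ± 0.09, adjusted p = 1.48e-08), while the co-chaperone genes Dpit47 and Pih1D1 fell by 0.73 ± 0.09 and 0.34 ± 0.08 on the log2 scale (adjusted p = 1.95e-06 and 0.00207). These counts are for parental cells. With copper Trap1 was not called in IntS6 cells (log2 0.016, edgeR adjusted p = 0.877) or IntS12 cells (log2 0.077, adjusted p = 0.388). The Hsp70 paralog Hsc70-3 was not called in IntS12 cells (log2 0.15, adjusted p = 0.178).

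In IntS6 cells against parental cells, both with copper, 7.45% of genes tested were called higher and 1.46% lower, and few genes of these lists passed the test. By edgeR 0 of 15 Hsp90 paralogs and co-chaperones were called, with 3 at an unadjusted p under 0.05 and 0 by DESeq2. Among them Sgt had a log2 difference of -0.24 ± 0.08 (adjusted p = 0.0506), which passed the test with the replicate letter as a block (adjusted p = 0.0305), so that 1 of the 15 was then called. The count was also 1 with rRNA genes left out, with no filter on low counts, and without IntS6 library B or parental library B. It was 2 without parental library A. Gp93, at -0.23 on the log2 scale (edgeR adjusted p = 0.119), passed with no filter, without IntS6 library B and without parental library A. The Hsp70 paralogs gave 0 of 4 (0 unadjusted, 0 by DESeq2), the chaperonin and prefoldin subunits 0 of 14 (1 unadjusted, 0 by DESeq2) and the mitochondrial chaperones 0 of 5 (1 unadjusted, 0 by DESeq2). The J-domain genes gave 2 of 31, jdp (log2 0.88 ± 0.22, adjusted p = 0.0107) and CG5001 (log2 1.17 ± 0.30, adjusted p = 0.0153). Both are low, at 4.63 ± 0.434 and 3.46 ± 0.996 CPM in IntS6 cells with copper against 2.55 ± 0.568 and 1.53 ± 0.798 CPM in parental cells with copper. The J-domain count was 1 with only these groups fitted and without IntS6 library A, parental library B or parental library C. It was 0 without IntS6 library C.

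Of the 12 tested heat-inducible targets of Hsf, 9 rose and 1 fell in IntS6 cells against parental cells, both with copper. Their median log2 fold change was 1.21, beside -0.008 over all genes. The list counts near-identical Hsp70 copies as separate genes, and also Hsp22 and CG4456, whose values were identical in every group, so that 1 signal stands as 2 genes in its counts and medians. Hsp27 and Hsp68 rose by 0.78 ± 0.11 and 1.10 ± 0.17 on the log2 scale (edgeR adjusted p = 6.67e-05 and 0.000133), and the noncoding RNA lncRNA:Hsromega fell by 1.03 ± 0.12 (adjusted p = 6.88e-06). With copper in parental cells 7 of the 12 rose, Hsp22 and CG4456 among them, where 19.3% of genes tested were called higher. The median of the 12 was 1.06, and lncRNA:Hsromega rose 6.25-fold (adjusted p = 2.87e-12). Of 5 genes of selective autophagy and the proteasome, 1 rose, the autophagy receptor gene ref(2)P (log2 0.45 ± 0.12, adjusted p = 0.0213). That call ended when these groups were fitted alone and without IntS6 library B, parental library A or parental library C, with adjusted p of up to 0.127. In parental cells 4 of the same 5 rose with copper, ref(2)P by 1.10 ± 0.13 on the log2 scale (adjusted p = 8.16e-07).

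**Figure D5:**
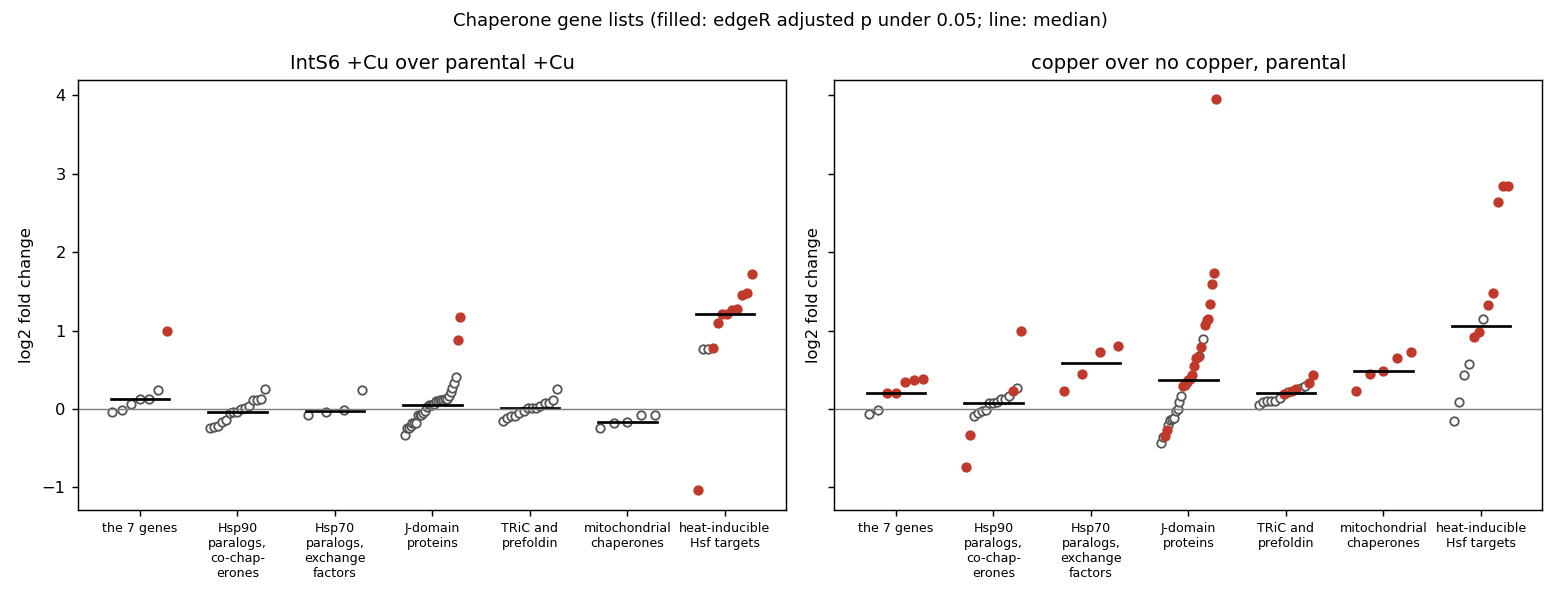
Log2 fold changes of the 7 genes and of the members of 6 chaperone gene lists in 2 comparisons (panels), with filled points for an edgeR adjusted p under 0.05 and a line at each list's median. For IntS6 over parental cells, both with copper, the filled points are stv, 2 J-domain genes and 10 heat-inducible Hsf targets, and with copper over without in parental cells each list has filled points.

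The genes whose log2 CPM varied most like each of the 7 over the 18 libraries are given as a description, since all such correlations share the copper state and the scaling of the libraries. Hsp83 was most like Hsc70-4 (Pearson r = 0.978), followed by SerRS (0.974) and GstE6 (0.969). Hsc70-4 was most like the proteasome subunit gene Rpn1 (r = 0.990), Gp93 (0.989) and the coatomer gene alphaCOP (0.989). Hsc70Cb was most like the chaperonin subunit gene CCT4 (0.941), egr (0.922) and Hsp83 (0.913). Hop was most like CG7900 (0.941), IRSp53 (0.939) and Droj2 (0.939), a J-domain gene. DnaJ-1 was most like mfas (0.966), CG5080 (0.964) and CG31705 (0.963). The gene stv was most like Gdap2 (0.945), CG42674 (0.921) and the plasmatocyte gene Hml (0.920), and its r with Hsp83 was 0.322. Hml averaged 33.15 ± 12.8 CPM (SD) in IntS6 cells with copper and at most 3.4 CPM in each other group. Like stv, it thus stood apart in that group, and r without that group was not computed. For Hsf the highest values were lower, with CG17508 (0.756), CG9641 (0.707) and Edc3 (0.685), and its r with the other 6 genes ran from 0.0349 to 0.489.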

How the data were processed

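The deposited table holds estimated counts per gene in 18 libraries, which the authors made by trimming reads (Trimmomatic 0.39) and counting them per gene (featureCounts), with genome build dm6/BDGP6, per the submitters' processing notes. Of the values 13.4% were not whole (tolerance 0.005). The sources used here do not give the aligner, annotation release, strand setting or handling of reads that map to several places. Symbols were found for 17626 of 17753 identifiers. Loci and exon lengths came from the BDGP6.54 annotation.

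After rounding, the test was edgeR's (4.0.16, R 4.3.3) quasi-likelihood test in 1 fit with a mean per group, TMM scaling and filterByExpr, which kept 8174 genes. Library sizes include all genes, those filtered out and rRNA genes too. The test had 12 residual degrees of freedom and a prior of 9.62. A gene was called where its p, adjusted by Benjamini-Hochberg over all genes tested, was under 0.05, in each of 10 comparisons. The standard error is the log2 fold change over the square root of F, and intervals are 95%. CPM used TMM-scaled library sizes. The script was tested on simulated counts with the same spread for all genes (8%), for IntS6 against parental cells with copper. It called 17.9% of 1.25-fold, 70.1% of 1.5-fold and 93.9% of 2-fold changes, with 6 false calls among 8025 genes. A gene that did not pass the test may thus still differ by a small fold.

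Alternatives were other scaling (none, or RLE), rRNA genes left out, no filter, only the groups compared, counts rounded down, DESeq2 1.42.0, the replicate letter as a block, and each library left out. Replicates all differed beyond counting noise, so none was merged. Deviations from the group mean of same-letter libraries correlated above 0.1 for all letters in IntS6 against parental cells with copper (0.213, 0.244 and 0.136) and in parental cells with against without copper (0.122, 0.114 and 0.278), and not in the other 6 pairs of groups. The labels give no batch.

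The 7 genes and the lists were chosen with earlier results of these data known. Besides the 7 and the cell type markers, the text names at most 3 genes per list, by smallest p in the comparison. Outside this rule it names Trap1, Hsc20 and Hsc70-3. It also names the 3 genes most correlated with each of the 7 (log2 CPM, prior count 2), and IntS6, IntS12 and MtnA. Through synonyms 7 list entries were matched, and those without one were Ahsa1, unc-45, Hspbp1, roe1 (2 lists), CG9828 and TER94. Germ line markers summed to 19 to 31.7 CPM with copper and 4.46 to 8.85 CPM without. Nearly all of this was piwi, at 20.2, 23.6 and 23.3 CPM in IntS6, IntS12 and parental cells with copper. Without copper piwi averaged 6.07, 5.94 and 6.32 CPM in the same cells. The rest, vas, nanos and bam, averaged at most 0.285 CPM in any group. Sequences were not used here, so promoter motifs were not searched.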

Additional observations from a re-analysis of the deposited data

Results flagged for a closer look

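The copper response of stv differed between IntS6 and parental cells by the test of the difference itself: 0.88 ± 0.19 on the log2 scale (edgeR adjusted p = 0.0191). It was called in 14 of 20 alternative settings, with values from 0.71 to 1.03 and adjusted p from 3.54e-05 to 0.0947. All 3 IntS6 libraries with copper were above all 3 without, whereas the parental groups overlapped. This describes the same values as the test. The share of genes tested with that pattern is not given here, and 23.3% were called higher with copper in IntS6 cells.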

How the results depend on the processing

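The 7 genes in 10 comparisons gave 1064 values under alternative settings, of which 973 kept direction and call, 35 lost a call, 1 gained one and 55 changed direction. No called result changed direction, and the largest value after such a change was 0.17 on the log2 scale. Counts of genes called moved beyond 1.5-fold as follows: with the replicate block 2 instead of 1 (IntS6 against parental cells, copper); with only the groups compared 3 instead of 5 (copper in parental cells) and 0 instead of 1 (copper response of IntS6 minus parental cells); with library sizes alone 3 instead of 5 (copper in IntS12 cells) and 1 instead of 2 (IntS6 against IntS12 cells, copper); with no filter 3 instead of 5 (copper in IntS12 cells). With a library left out, the counts ran from 3 to 5 (copper in parental cells), 3 to 4 (copper in IntS12 cells), 1 to 2 (IntS6 against IntS12 cells) and 0 to 1 (copper response of IntS6 minus parental cells). The block changed no other call of the 7 genes. The share of all genes called in either direction moved with these settings: 10.9% with the block against 8.91% (IntS6 against parental cells, copper), 29.6% against 38.6% and 0.767% against 1.16% with only the groups compared (copper in parental cells, and the response of IntS6 minus parental cells), 34.4% with library sizes alone and 23% with no filter against 36.8% (copper in IntS12 cells), and 4.94% against 5.8% with library sizes alone (IntS6 against IntS12 cells). The cause of these changes was not tested. Copper calls of Hsp83, Hsc70-4 and DnaJ-1 in all 3 kinds of cell were kept in all 14 settings.

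Uncalled values that changed direction were, with library sizes alone, 0.027 for Hsp83, 0.0077 for Hsc70-4 and 0.0049 for Grp170 (IntS6 against parental cells, copper), and 0.034 for stv and 0.00049 for Hsc70Cb (IntS12 against parental cells, no copper). With no filter they were -0.0024 for Hsf (IntS12 against parental cells, copper) and -0.015 for Hsp83 (copper response of IntS6 minus parental cells), which was -0.0031 with rRNA genes left out. For stv, copper in IntS12 cells gave 0.0025 with only these groups, and IntS12 against parental cells without copper gave 0.0029 with the replicate block and 0.00055 with DESeq2. With a library left out, uncalled ranges that crossed 0 were, in IntS6 against parental cells with copper, -0.073 to 0.043 (Hsp83), -0.088 to 0.0046 (Hsc70-4), -0.012 to 0.13 (Hsc70Cb), -0.15 to 0.0042 (Hsc70-5), -0.13 to 0.024 (Grp170) and -0.015 to 0.27 (Atg8a). In IntS12 against parental cells with copper they were -0.083 to 0.0056 (DnaJ-1), -0.056 to 0.073 (Hsf), -0.0097 to 0.18 (stv) and -0.14 to 0.0080 (Hsc70Cb). With copper they were -0.078 to 0.052 (Hsf) and -0.22 to 0.11 (stv) in parental cells, -0.027 to 0.12 (Hsf) in IntS6 cells and -0.037 to 0.020 (stv) in IntS12 cells. Without copper they were, in IntS6 against parental cells, -0.043 to 0.29 (stv), -0.0088 to 0.14 (Hsf), -0.093 to 0.0029 (Hop) and -0.14 to 0.024 (DnaJ-1), and in IntS12 against parental cells -0.16 to 0.17 (stv). In copper response minus that of parental cells they were -0.046 to 0.071 (Hsp83), -0.019 to 0.073 (Hsc70-4) and -0.015 to 0.13 (Hsf) for IntS6 cells, and -0.11 to 0.21 (stv), -0.0030 to 0.13 (Hsf), -0.0041 to 0.085 (DnaJ-1), -0.11 to 0.044 (Hsc70Cb) and -0.050 to 0.055 (Hop) for IntS12 cells. List counts, in either direction, under the same settings were computed after the data were seen. In IntS6 against parental cells with copper the Hsp90 list gave 0 to 2 (0 as reported) and the J-domain list 0 to 3 (2). The Hsf targets gave 9 to 12 (10) and the list of stv partners 0 to 1 (1). With copper in parental cells the chaperonin list gave 1 to 7 (5), the J-domain list 12 to 18 (18) and the Hsf targets 5 to 10 (7). There the mitochondrial list gave 4 to 5 (5), the Hsp70 list 3 to 4 (4) and the stv partners 3 to 4 (4). The fewest counts were those of stv, at 136 to 453.67 per library, and depth as a limit was not tested.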
